A study of Mus musculus with 16 samples.

Results

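The immature olfactory neuron growth genes are 10 genes that young neurons use to extend an axon or to build a growth cone: Gap43, Gng8, Dcx, Dpysl3, Dpysl5, Stmn1, Stmn2, Stmn4, Crmp1 and Dbn1. They were taken by gene symbol from the array annotation, and each was represented by 1 probe set, which gave 10 of the 22206 probe sets tested. Cells came from the olfactory mucosa of 24 S100a5-tauGFP mice of both sexes, 7 to 12 weeks old, in 8 pools of 3 mice. In every one of these mice the GFP label depended on S100a5, a calcium-binding protein gene of olfactory sensory neurons, and every pool was sorted by fluorescence into cells with GFP (GFP+) and cells without it (GFP-). The 4 groups, with 4 arrays each, were GFP+ cells of odor-exposed mice, GFP- cells of odor-exposed mice, GFP+ cells of vehicle-exposed mice (filtered air) and GFP- cells of vehicle-exposed mice. The sample labels name 1-pentanethiol as the odor, while the text on the study's design names bourgeonal. Mice spent 40 h in clean-air chambers and received 10 s pulses every 20 min after the first 26 h. The assay asks which genes mark the neurons that the odor activates, and for the growth genes it gives their levels in both sorted populations, with and without the odor. No gate for neurons is given for the GFP- cells, which can hold every other cell of the mucosa.

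Olfactory sensory neurons are replaced throughout life from basal stem cells. A new neuron first passes through an immature stage, in which it extends its axon to the olfactory bulb, and then matures, grows cilia and makes the transduction machinery and the olfactory marker protein, Omp. The immature stage is classically marked by Gap43 in the axon and growth cone, by the G protein subunit Gng8 and by regulators of microtubules. These regulators are of several kinds. Stathmins bind free tubulin dimers, doublecortin binds and stabilizes microtubules, and the collapsin response mediator proteins (CRMPs: Crmp1 and Dpysl2 to Dpysl5) carry semaphorin signals to the cytoskeleton. Drebrin, from Dbn1, binds actin filaments in growth cones and dendrites.

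Values are log2 signals as deposited, so a difference of 1 is a doubling of the signal, and levels are compared only for the same probe set. Arrays of the same group correlated at 0.984 to 0.995 over the tested probe sets, against 0.949 to 0.971 between GFP+ and GFP- arrays. The median of the negative control entries was 6.24 to 6.48 on odor GFP+ arrays, 6.04 to 6.10 on odor GFP- arrays and 5.99 to 6.12 on vehicle GFP- arrays. On 3 vehicle GFP+ arrays it was 6.22 to 6.38, but the GFP+ array of vehicle pool 2 stood apart with 7.28. Where leaving it out changed a call of the growth genes or their relatives, the value without it is given. For values that moved without a change of call, it is given only for some genes. The median over all tested probe sets was 7.43 ± 0.03 on odor GFP+ arrays, 7.75 ± 0.03 on odor GFP- arrays, 7.41 ± 0.03 on vehicle GFP+ arrays and 7.76 ± 0.02 on vehicle GFP- arrays (SD, n = 4 each). Setting these medians equal moved the median difference of all probe sets between GFP+ and GFP- cells up by 0.326 in odor pools and 0.348 in vehicle pools, and turned the split of calls over all probe sets to 13098 higher and 2009 lower in odor pools and 13003 and 2008 in vehicle pools, beside 2518 and 2649, and 2074 and 2617, as deposited. With the medians of the 1080 odorant receptor probe sets set equal the split was 865 and 2414, and 515 and 3237. Calls of the growth genes and their relatives that these scalings changed are given with the genes. S100a5 itself was higher in GFP+ cells in 8 of 8 pools, by 0.99 ± 0.12 in odor pools and 0.87 ± 0.12 in vehicle pools (SE, limma adjusted p = 7.79e-06 and 3.51e-05).

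In the comparison of GFP+ with GFP- cells, the growth genes split into a group that was strongly lower in GFP+ cells and a group that was not. Gng8, Dpysl3, Gap43 and Stmn1 fell in every pool: their log2 differences were -1.90 to -3.61 in odor pools and -1.97 to -4.20 in vehicle pools, with no overlap between the arrays. Dpysl5, in vehicle pools, and Stmn2, in both, were lower by less than 1 log2 unit, and Dcx, Stmn4, Crmp1 and Dbn1 did not pass the test in either kind of pool. In limma with Benjamini-Hochberg adjustment over all 22206 probe sets, 5 of 10 growth genes were lower in GFP+ cells of odor pools, where 11.9% of all probe sets were, and 6 of 10 were lower in vehicle pools, where 11.8% were. None of the 10 was higher by this test on the deposited scale, against 11.3% of all probe sets in odor pools and 9.34% in vehicle pools. In either direction 23.3% of all probe sets passed in odor pools and 21.1% in vehicle pools. Leaving out the GFP+ array of vehicle pool 2 gave 5 of 10 growth genes lower in vehicle pools, since Stmn2 then had an adjusted p of 0.0527. At an unadjusted p under 0.05, 6 of 10 differed in odor pools and 6 of 10 in vehicle pools, all of them lower, beside 35.9% and 33.6% of all probe sets in either direction. The median difference of the 10 genes was -0.46 in odor pools and -0.61 in vehicle pools, and that of all tested probe sets was 0.13 and 0.11. With the array medians set equal the median of the 10 genes was -0.14 and -0.27. In sorted bulk samples, fewer young neurons and less RNA of these genes per cell cannot be told apart.

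**Figure D1:**
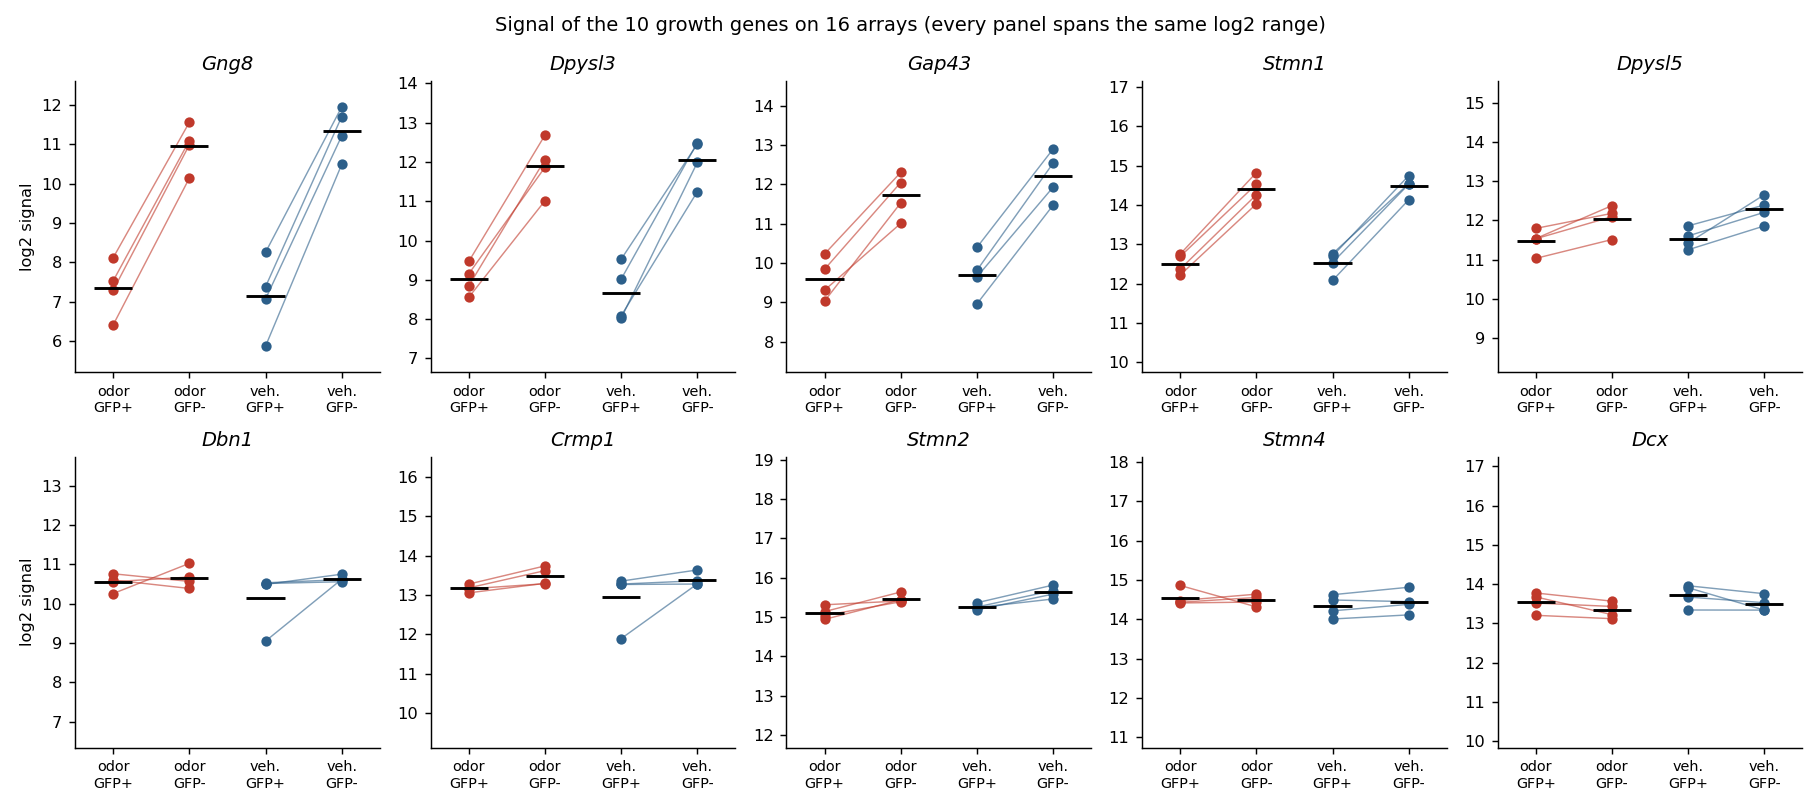
Log2 signal (y axis) of the 10 growth genes on the 16 arrays, by group (x axis; veh., vehicle). Points are arrays, thin lines join the GFP+ and GFP- cells of a pool, red is odor, blue is vehicle and black bars are group means. The GFP+ arrays of Gng8, Dpysl3, Gap43 and Stmn1 lie below all their GFP- arrays, while those of Dcx and Stmn4 overlap them.

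RefSeq promoter entries on GRCm38.p6 matched 5 of the 10 genes. Entries on the chromosome of Dpysl3 were left out of this search, so the count does not cover that gene. The 250 bases before the start site are shown for 4 of the matched genes, since these 4 differed in how they followed the sort. Gng8 had the largest drop, Dpysl5 passed the test in vehicle pools, and Dcx and Dbn1 did not pass the test. Gng8 lies on the plus strand (chr7:16891536-16891785), Dpysl5 on the plus strand (chr5:30711314-30711563), Dcx on the minus strand (chrX:143933220-143933469, the first of its listed start sites) and Dbn1 on the minus strand (chr13:55488077-55488326). Each is written 5′ to 3′ on the strand of its gene, and capitals mark matches, on either strand, to GGGCGG (a GC box), CCCNNGGG (the core bound by Ebf factors, regulators of olfactory neurons), TAATTA (a homeodomain core) or TATAAA (the usual letters of a TATA box). CAGCTG, an E-box, was searched too.
Gng8: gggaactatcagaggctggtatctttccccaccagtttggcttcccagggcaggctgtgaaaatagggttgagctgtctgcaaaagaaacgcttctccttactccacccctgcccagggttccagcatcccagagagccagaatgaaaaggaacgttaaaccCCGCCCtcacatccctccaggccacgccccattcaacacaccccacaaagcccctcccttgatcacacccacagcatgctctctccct
Dpysl5: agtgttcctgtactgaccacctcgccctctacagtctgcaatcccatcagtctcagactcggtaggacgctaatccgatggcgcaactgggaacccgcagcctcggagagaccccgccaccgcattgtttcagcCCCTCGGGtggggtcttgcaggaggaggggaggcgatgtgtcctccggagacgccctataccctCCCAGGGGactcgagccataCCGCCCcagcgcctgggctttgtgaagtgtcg
Dcx: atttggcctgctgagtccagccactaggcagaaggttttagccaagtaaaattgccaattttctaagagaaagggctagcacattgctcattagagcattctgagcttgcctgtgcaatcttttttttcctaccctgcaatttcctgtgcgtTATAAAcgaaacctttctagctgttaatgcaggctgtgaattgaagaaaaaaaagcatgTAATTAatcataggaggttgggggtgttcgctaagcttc
Dbn1: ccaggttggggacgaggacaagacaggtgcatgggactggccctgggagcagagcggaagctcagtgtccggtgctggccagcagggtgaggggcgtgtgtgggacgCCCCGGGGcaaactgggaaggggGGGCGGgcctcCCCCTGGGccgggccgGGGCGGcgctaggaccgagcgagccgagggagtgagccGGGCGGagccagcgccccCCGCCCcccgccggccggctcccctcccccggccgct
Counted from the first base of each match, with -1 the base before the start site, the Gng8 window held a GC box at -88 and none of the other letters. The Dpysl5 window held the Ebf core letters at -116 and -52 and a GC box at -32. The Dcx window held the homeodomain core at -39 and the TATA box at -98, while the Dbn1 window held the Ebf core letters at -143 and -109 and GC boxes at -120, -93, -55 and -37. No E-box of these letters was in the 4 windows, and the matches shown do not overlap each other. Of 32851 promoter windows of the same length, 32.7% held GGGCGG, 11.8% CCCNNGGG, 4.84% TAATTA, 12.4% TATAAA and 13.0% CAGCTG. The share of G and C was 56.0% for Gng8, 62.8% for Dpysl5, 41.6% for Dcx and 77.2% for Dbn1, beside a median of 52.4% over all windows. These matches are descriptions of letters and were not tested against the array values.

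Gng8, which encodes a G protein gamma subunit of immature olfactory neurons, was the growth gene with the largest drop. It read 7.53, 7.29, 8.12 and 6.41 in GFP+ cells of odor pools 1 to 4, against 11.10, 10.99, 11.56 and 10.14 in their GFP- cells. The vehicle pools gave 7.38, 7.07, 8.25 and 5.87 in GFP+ cells, against 11.71, 11.22, 11.95 and 10.49 in GFP- cells. No GFP+ array reached a GFP- array, and pool 4 was the lowest in every group. The difference was -3.61 ± 0.46 in odor pools (12.2-fold lower) and -4.20 ± 0.46 in vehicle pools (18.4-fold lower; SE, n = 4 arrays a group), with limma adjusted p of 1.14e-05 and 2.04e-06. Its GFP+ signal lay within the range of the negative control entries: it was above their median on 4 of 4 odor GFP+ arrays and 2 of 4 vehicle GFP+ arrays, and above their 95th percentile on none. In GFP- cells it was above that percentile on 3 of 4 odor arrays and 4 of 4 vehicle arrays. The folds are therefore ratios of signals that include background, and their size is limited by it.

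Gap43, the growth cone phosphoprotein that serves as the standard marker of immature olfactory neurons, fell in the same direction. It read 9.84, 9.03, 10.23 and 9.31 in GFP+ cells of odor pools 1 to 4, against 12.05, 11.53, 12.30 and 11.01 in their GFP- cells. In vehicle pools it read 10.39, 9.64, 9.81 and 8.96 in GFP+ cells, against 12.90, 11.93, 12.54 and 11.47 in GFP- cells. The ranges were separate in both kinds of pool. The difference was -2.12 ± 0.36 in odor pools, with the GFP+ signal at 23.0% of the GFP- signal, and -2.50 ± 0.36 in vehicle pools, at 17.6% (SE, limma adjusted p = 0.000285 and 5.03e-05). All 16 arrays were above the median of the negative controls for Gap43, but of the GFP+ arrays only 1, a vehicle array, was above their 95th percentile. GFP+ minus GFP- was between -2.73 and -1.70 in the 8 pools.

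Among the CRMP genes, Dpysl3 (CRMP4), a member made mainly in newly born neurons, fell by far more than the others. It read 9.16, 8.85, 9.47 and 8.56 in GFP+ cells of odor pools, against 11.87, 12.06, 12.68 and 11.01 in GFP- cells. Vehicle pools had 9.02, 8.03, 9.53 and 8.09 in GFP+ cells, against 12.49, 11.99, 12.45 and 11.24 in GFP- cells. GFP+ minus GFP- lay between -3.96 and -2.45 in the 8 pools, and no GFP+ array reached a GFP- array. The difference was -2.90 ± 0.38 in odor pools (7.45-fold lower) and -3.38 ± 0.38 in vehicle pools (10.4-fold lower; SE, limma adjusted p = 1.6e-05 and 2.75e-06). Its GFP+ signal was above the median of the negative controls but on 0 of 8 arrays above their 95th percentile, so these folds too are ratios of signals that include background.

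Dpysl5 (CRMP5), which can restrain neurite outgrowth, read below its GFP- level in GFP+ cells of 8 of 8 pools, by a modest amount. It read 11.80, 11.54, 11.54 and 11.04 in GFP+ cells of odor pools, against 12.18, 12.10, 12.38 and 11.52 in GFP- cells. In vehicle pools it read 11.86, 11.61, 11.43 and 11.26 in GFP+ cells, against 12.39, 12.21, 12.66 and 11.86 in GFP- cells. The groups overlapped in both kinds of pool, although GFP+ minus GFP- was -1.23 to -0.38 within the pools. It passed the test in vehicle pools (-0.74 ± 0.21, limma adjusted p = 0.0186) and not in odor pools (-0.57 ± 0.21, adjusted p = 0.0655). With the pool of mice as a block, which uses the pairing of the sorted cells, it passed in odor pools too (adjusted p = 0.0173), as it did without odor GFP+ array 1 (0.0472) or odor GFP- array 4 (0.0192). The vehicle call was lost without vehicle GFP+ array 4 (0.0592) or vehicle GFP- array 3 (0.0662). With the array medians set equal, the vehicle difference of -0.39 did not pass (adjusted p = 0.106).

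Crmp1, which mediates the collapse of growth cones by semaphorins, did not pass the test. It read 13.18, 13.16, 13.28 and 13.06 in GFP+ cells of odor pools, against 13.62, 13.29, 13.74 and 13.30 in GFP- cells. Vehicle pools showed 13.36, 11.89, 13.27 and 13.28 in GFP+ cells, against 13.64, 13.29, 13.28 and 13.36 in GFP- cells. The low value of 11.89 is that of vehicle pool 2, the array that stood apart, and the odor arrays of GFP+ cells lay just below those of GFP- cells without overlap. The difference was -0.32 ± 0.25 in odor pools and -0.44 ± 0.25 in vehicle pools (limma adjusted p = 0.37 and 0.222), with 95% intervals of -0.84 to 0.20 and -0.96 to 0.08. Leaving out that array gave a vehicle difference of -0.09.

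The stathmins differed among themselves. Stmn1, the cytosolic founding member that is also made in dividing cells, was lower in GFP+ cells by nearly the same amount in every pool. It read 12.37, 12.69, 12.75 and 12.22 in GFP+ cells of odor pools, against 14.26, 14.53, 14.82 and 14.03 in GFP- cells. In vehicle pools it read 12.53, 12.76, 12.70 and 12.08 in GFP+ cells, against 14.53, 14.54, 14.74 and 14.13 in GFP- cells. GFP+ minus GFP- ranged only from -2.07 to -1.78 over the 8 pools. The difference was -1.90 ± 0.20 in odor pools and -1.97 ± 0.20 in vehicle pools (SE, limma adjusted p = 1.06e-06 and 7.41e-07), which put the GFP+ signal at 26.7% and 25.6% of the GFP- signal.

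Stmn2 (SCG10), a membrane-bound stathmin of growth cones, had a high signal in all 4 groups and a small difference. It read 15.03, 14.94, 15.13 and 15.31 in GFP+ cells of odor pools, against 15.38, 15.43, 15.63 and 15.41 in GFP- cells. Vehicle values were 15.36, 15.18, 15.25 and 15.24 in GFP+ cells, against 15.81, 15.58, 15.67 and 15.45 in GFP- cells. GFP+ arrays were lower in 8 of 8 pools and did not overlap with GFP- arrays. The difference was -0.36 ± 0.12 in odor pools and -0.37 ± 0.12 in vehicle pools (limma adjusted p = 0.0332 and 0.0303). This call was close to the threshold: with the array medians set equal it was -0.03 and -0.02 (adjusted p = 0.791 and 0.86), and with the pool of mice as a block the odor call had an adjusted p of 0.0507. It also did not pass in odor pools when odor GFP+ array 1, 2 or 3 or odor GFP- array 2, 3 or 4 was left out (adjusted p = 0.0538 to 0.1), nor in vehicle pools when vehicle GFP+ array 2, 3 or 4 or vehicle GFP- array 1, 2 or 3 was left out (0.051 to 0.1).

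Stmn4 (RB3), another membrane-bound, neuronal stathmin, did not pass the test. It read 14.48, 14.42, 14.86 and 14.44 in GFP+ cells of odor pools, against 14.64, 14.44, 14.32 and 14.56 in GFP- cells. The vehicle arrays read 14.63, 14.01, 14.22 and 14.49 in GFP+ cells, against 14.82, 14.12, 14.38 and 14.45 in GFP- cells. The groups overlapped, with the GFP+ value below the GFP- value in 6 of 8 pools. The difference was 0.06 ± 0.17 in odor pools (95% interval -0.29 to 0.41, limma adjusted p = 0.825) and -0.10 ± 0.17 in vehicle pools (-0.46 to 0.25, adjusted p = 0.7). With the array medians set equal, the odor difference was 0.39 and passed as higher (adjusted p = 0.0485).

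Dcx, doublecortin, is used in the brain as a marker of newly born neurons, but here its GFP+ signal was at or slightly above the GFP- signal in 8 of 8 pools, without passing the test. It read 13.68, 13.52, 13.78 and 13.21 in GFP+ cells of odor pools, against 13.22, 13.43, 13.57 and 13.12 in GFP- cells. Vehicle pools gave 13.67, 13.91, 13.96 and 13.34 in GFP+ cells, against 13.53, 13.34, 13.76 and 13.34 in GFP- cells. The groups overlapped. The difference was 0.21 ± 0.17 in odor pools and 0.23 ± 0.17 in vehicle pools (limma adjusted p = 0.385 and 0.356), with lower 95% bounds of -0.14 and -0.12. Its calls depended on the scaling: setting the medians of the arrays equal gave 0.53 (adjusted p = 0.00981) in odor pools and 0.58 (0.0065) in vehicle pools, both past the threshold.

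Dbn1, drebrin, had values near the upper end of the negative controls. It read 10.60, 10.56, 10.26 and 10.76 in GFP+ cells of odor pools, against 10.39, 10.68, 11.03 and 10.57 in GFP- cells. In vehicle pools it read 10.51, 9.05, 10.49 and 10.53 in GFP+ cells, against 10.56, 10.62, 10.75 and 10.61 in GFP- cells. The odor arrays overlapped, and the vehicle arrays did not, with the low value of 9.05 again from vehicle pool 2. The difference was -0.12 ± 0.26 in odor pools and -0.49 ± 0.26 in vehicle pools (limma adjusted p = 0.771 and 0.199), and leaving out that array gave a vehicle difference of -0.12. With the medians of the odorant receptor probe sets set equal, Dbn1 (-0.72, adjusted p = 0.0235) and Crmp1 (-0.67, adjusted p = 0.018) passed as lower in vehicle pools.

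**Figure D2:**
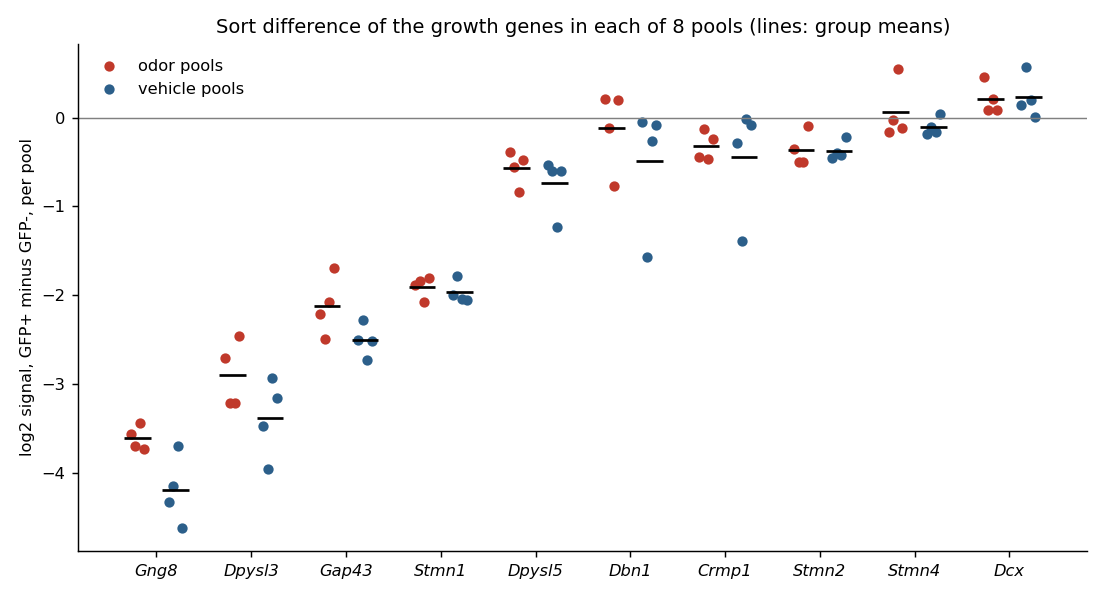
GFP+ minus GFP- log2 signal (y axis) of each growth gene in the 4 odor pools (red) and 4 vehicle pools (blue), with black lines at the group means and the genes in the order of their vehicle mean. Gng8, Dpysl3, Gap43 and Stmn1 lie at -1.70 or lower in all 8 pools, and Dcx lies above 0 in all 8.

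Counted over the pools, the GFP+ value was below the GFP- value in 8 of 8 pools for 7 genes (Gng8, Dpysl3, Gap43, Stmn1, Dpysl5, Stmn2 and Crmp1), in 6 of 8 for Stmn4 and Dbn1, and in none for Dcx. Arrays of GFP+ and GFP- cells did not overlap for 6 of 10 genes in odor pools and 6 of 10 in vehicle pools, beside 26.8% and 23.7% of all tested probe sets. In the order of the 4 group means, Crmp1 and Dbn1, which did not pass the test, had both GFP- means above both GFP+ means. So did Gng8, Dpysl3, Gap43, Stmn1, Stmn2 and Dpysl5. Within each sorted population, the odor and vehicle means of these genes were closer than the larger SD of the 2 groups, except for Stmn2 in GFP- cells, whose means were 15.46 ± 0.11 in odor pools and 15.63 ± 0.15 in vehicle pools. For Gap43, the means were 9.60 ± 0.54 in odor GFP+, 11.72 ± 0.58 in odor GFP-, 9.70 ± 0.59 in vehicle GFP+ and 12.21 ± 0.63 in vehicle GFP- cells (SD, n = 4 each). For Dcx the 4 means lay within 0.38 of each other and for Stmn4 within 0.21.

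Relatives of the growth genes on the array were set beside them, since several belong to families with members at other stages of the neuron's life. Of the 21 family relatives measured, 8 were lower and 2 higher in GFP+ cells of odor pools, and 9 were lower and 1 higher in vehicle pools. Over all probe sets, 11.9% were lower and 11.3% higher in odor pools, and 11.8% and 9.34% in vehicle pools. With the array medians set equal the counts were 6 lower and 9 higher, and 7 lower and 5 higher. The relatives of Gap43 at the membrane of growth cones were lower. Marcks, a protein kinase C substrate that binds actin, was lower, at -1.80 ± 0.24 in odor pools and -1.99 ± 0.24 in vehicle pools (limma adjusted p = 1.78e-05 and 5.91e-06). Marcksl1 was at -0.60 and -0.85 (adjusted p = 0.0477 and 0.00667; 0.332 and 0.0719 after quantile normalization, and 0.223 in odor pools with the array medians set equal), and Basp1 at -1.14 and -1.08 (adjusted p = 0.000126 and 0.000209). Basp1 had no GFP+ array above the negative control median.

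Among the G protein gamma subunits, several that are widely expressed were lower too, and the subunit of mature olfactory neurons did not pass as lower under any scaling. Gng13, the gamma subunit in the cilia of mature neurons, differed by 0.16 ± 0.13 in odor pools and 0.13 ± 0.13 in vehicle pools (limma adjusted p = 0.391 and 0.536), and it passed as higher with the array medians set equal (0.49 and 0.47). Gng2, which blood cells and brain make, was lower, at -2.58 and -2.99 (adjusted p = 2.36e-07 and 4.1e-08), and the widely expressed Gng12 was at -2.64 in both kinds of pool (adjusted p = 7.42e-07 and 7.56e-07). No GFP+ array was above the 95th percentile of the negative controls for Gng2 or Gng12, so background limits these sizes too. Gng5 (-1.18 and -1.12), Gng3 (-0.94 and -0.66) and Gng4 (-0.47 and -0.67) were lower in both kinds of pool, and Gngt2 in vehicle pools (-0.81), although with the array medians set equal Gng4 passed in neither (-0.14 and -0.32) and Gng3 not in vehicle pools (-0.32). Gng4 also did not pass in either kind of pool after quantile normalization, nor in odor pools with the odorant receptor medians set equal, and Gng3 did not pass in vehicle pools without the GFP+ array of pool 2 (-0.53, adjusted p = 0.0548). Gng7, Gng10, Gng11 and Gngt1 did not pass on the deposited scale. The signal of Gng7, Gng11 and Gngt1 was above the negative control median on no array of any group. With the array medians set equal, Gng7 (0.49), Gng11 (0.76) and Gngt1 (0.59) passed as higher in odor pools (adjusted p = 0.0174, 0.0176 and 0.0262), and Gngt1 in vehicle pools (0.77, adjusted p = 0.00684). These relatives are not made by young neurons alone, and the part of other cells in their differences was not tested.

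No relative of the stathmins, CRMPs, doublecortin or drebrin passed as lower on the deposited scale. Stmn3 (SCLIP), a neuronal stathmin, differed by 0.31 ± 0.14 in odor pools and -0.03 ± 0.14 in vehicle pools (limma adjusted p = 0.119 and 0.907), and passed as higher with the array medians set equal (0.64 and 0.32). Without the GFP+ array of vehicle pool 2 its vehicle difference was 0.11. Dpysl2 (CRMP2), which promotes microtubule assembly in axons, differed by 0.27 ± 0.19 and 0.00 ± 0.19 (adjusted p = 0.306 and 0.999; 0.60 and passing as higher in odor pools with the array medians set equal), and without the GFP+ array of vehicle pool 2, where it read low, its vehicle difference was 0.25 (adjusted p = 0.126). Dpysl4 was near the negative controls and did not pass on the deposited scale, but passed as higher in odor pools with the array medians set equal (0.58, adjusted p = 0.0255). In the doublecortin family, Dclk3 was higher in GFP+ cells (0.75 and 0.62, adjusted p = 0.0116 and 0.0355), Dclk2 was higher in odor pools (0.64, adjusted p = 0.0287) and differed by 0.52 in vehicle pools (adjusted p = 0.0789), and Dclk1 did not pass. Dclk2 passed in vehicle pools with the array medians set equal (0.86) and after quantile normalization (0.76). With the odorant receptor medians set equal, Dclk2 passed in neither kind of pool, Dclk3 did not in vehicle pools (0.39, adjusted p = 0.175), and Dclk1 passed as lower in vehicle pools (-0.91, adjusted p = 0.0123). Dbnl, a drebrin-like actin binder, differed by -0.58 and -0.56 (adjusted p = 0.0532 and 0.0636). It passed as lower with the odorant receptor medians set equal (-0.64 and -0.79), and without the GFP+ array of vehicle pool 2 the vehicle difference was -0.32.

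Whether relatives differed from each other was tested over the 8 pools with an exact two-sided sign-flip permutation test on 17 pairs of genes, chosen after their values were seen, with Benjamini-Hochberg adjustment over the 17. The adjustment does not cover this choice, so the p-values describe the chosen pairs and are not independent support for a difference. Gng8 was paired with Gng13 only, and not with Gng2 or Gng12, whose mean sort differences over the 8 pools were -2.78 and -2.64. Dpysl4 was in no pair. The smallest p this test can give with 8 pools is 0.0078. A shift of a whole array cancels in these differences. For the sort difference, Stmn1 minus Stmn2 was -1.57 ± 0.16, and the values against Stmn3 and Stmn4 were -2.07 ± 0.33 and -1.91 ± 0.31 (SD over 8 pools, all 8 pools negative, exact test adjusted p = 0.0166 each). Stmn2 minus Stmn3 was -0.51 and Stmn2 minus Stmn4 was -0.34, negative in 7 of 8 pools (exact test adjusted p = 0.0241 each), while Stmn3 minus Stmn4 was 0.16 ± 0.25 (exact test adjusted p = 0.124). Within the CRMPs, Dpysl3 minus Dpysl5 was -2.48 ± 0.52, Crmp1 minus Dpysl3 was 2.76 ± 0.37 and Dpysl2 minus Dpysl3 was 3.27 ± 0.25, each with the same sign in 8 of 8 pools (exact test adjusted p = 0.0166). Dpysl5 was also below Dpysl2, with Dpysl2 minus Dpysl5 at 0.79 ± 0.42 (7 of 8 pools, exact test adjusted p = 0.0241). Gng8 minus Gng13 was -4.05 ± 0.47 in 8 of 8 pools (exact test adjusted p = 0.0166).

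The remaining pairs had smaller mean differences than those of Stmn1, Dpysl3 and Gng8. Crmp1 minus Dpysl2 was -0.52 ± 0.21 (8 of 8 pools, exact test adjusted p = 0.0166). Crmp1 minus Dpysl5 was 0.27 ± 0.56 (exact test adjusted p = 0.227), and without vehicle pool 2 it was 0.42 (adjusted p = 0.0409). Gap43 minus Marcks was -0.42 ± 0.59 (exact test adjusted p = 0.123). Dcx minus Dclk3 was -0.47 ± 0.39, with Dcx below in 7 of 8 pools (exact test adjusted p = 0.0332), whereas Dcx minus Dclk2 was -0.36 ± 0.44 and Dcx minus Dclk1 was 0.45 ± 0.79 (exact test adjusted p = 0.0919 and 0.183).

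**Figure D3:**
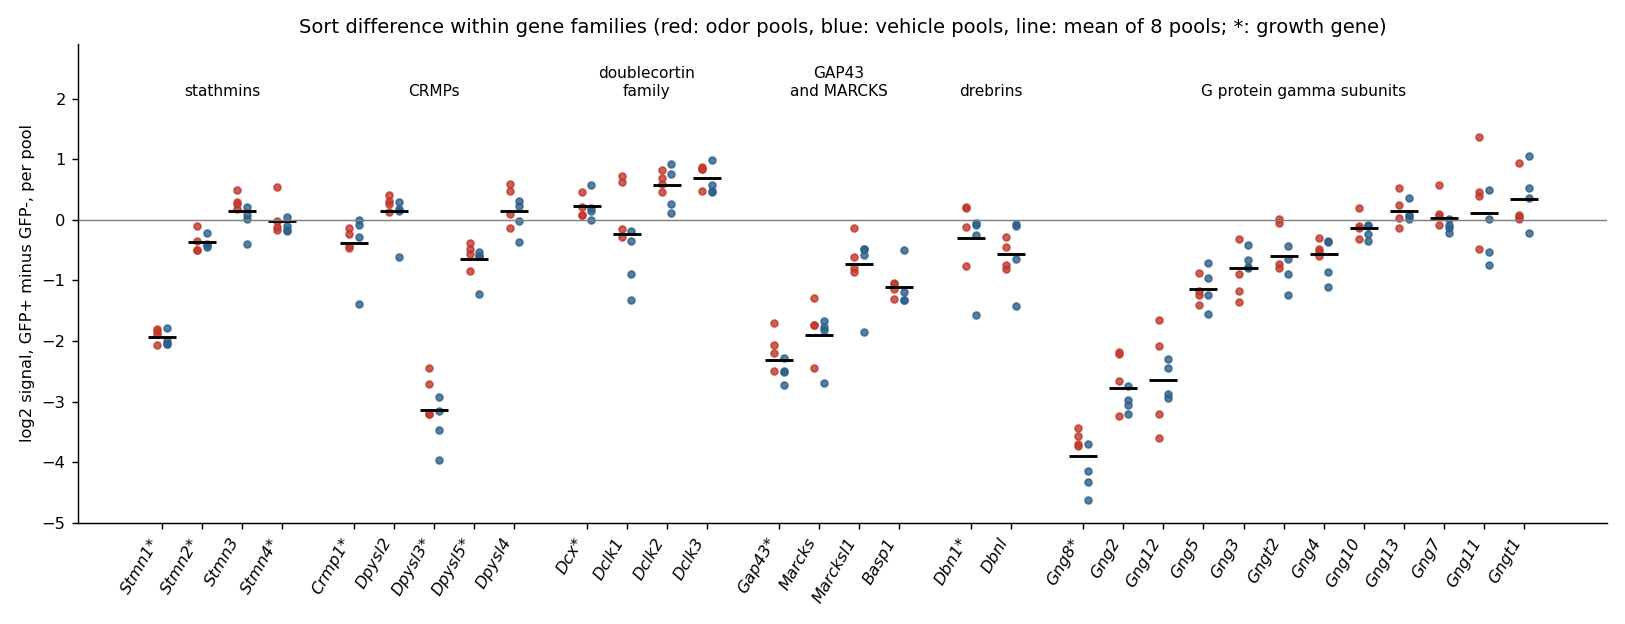
GFP+ minus GFP- log2 signal (y axis) of the growth genes (asterisks) and their relatives, by family; points are pools (red, odor; blue, vehicle) and black lines are means of the 8 pools. Stmn1 and Dpysl3 lie below every other stathmin and CRMP in all 8 pools, and Gng8 lies at -3.90 while Gng13 lies at 0.14.

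The genes whose log2 signal ran closest to Gap43 over the 16 arrays included other growth genes. Pearson's r with Gap43 was 0.97 for Gng8, 0.96 for Dpysl3, 0.94 for Stmn1, 0.90 for Dpysl5 and 0.88 for Stmn2. It was 0.52 for Crmp1, 0.33 for Dbn1, 0.16 for Stmn4 and -0.16 for Dcx. Outside the 10 genes, the 8 highest were Tubb2b (0.96, a beta tubulin of growing neurons), Olfr305 (0.96, an odorant receptor), Nhlh1 (0.96, a transcription factor of neuron precursors), Otx1, Galnt13, Gys1, Cacng4 and Adgrg2, the last at 0.95. These 16 arrays share the sort, so r describes mainly the split between GFP+ and GFP- cells.

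Within groups, several growth genes also moved with the replicate number. Gng8 was highest in replicate 3 and lowest in replicate 4 in all 4 groups, and Dcx was highest in replicate 3 in all 4. Stmn1 and Dpysl5 were lowest in replicate 4 in all 4 groups. Over the deviations of the 16 arrays from their group means, Gng8 correlated at 0.90 with Dpysl3, 0.88 with Dcx and 0.83 with Stmn1, whereas over the plain values Gng8 and Dcx correlated at -0.19. Crmp1 and Dbn1 correlated at 0.82 in their deviations, both with their lowest value in GFP+ cells of vehicle pool 2, and without that array the coefficient was -0.04 over 15 arrays. Without it Gng8 correlated at 0.94 with Dpysl3, 0.93 with Dcx and 0.87 with Stmn1. The deviations of Stmn4 correlated at 0.21, and those of Dbn1 at 0.19, with the mean of the other growth genes, against 0.96 for Dpysl3 and 0.82 for Gap43. Without the GFP+ array of vehicle pool 2 these were 0.09 for Stmn4, 0.0055 for Dbn1, 0.96 for Dpysl3 and 0.88 for Gap43. Arrays of the same number share nothing that the labels state across odor and vehicle, and these coefficients describe 16 arrays of 8 pools.

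Outside the 10 genes, the deviations closest to their mean deviation were those of Stk32a (r = 0.94), Ldlrad3 (0.94), Khdrbs2 (0.91), Kif5a (0.91), Nhlh1 (0.90), Tubb2b (0.90), Olfr921 (0.89) and Cacng4 (0.89), beside a median r of 0.03 over all probe sets. Of these, Stk32a was lower in GFP+ cells (-2.70 and -3.36), and Olfr921, an odorant receptor, was higher (2.56 and 2.49). Ldlrad3 (0.08 and 0.10) and the kinesin Kif5a (0.34 and 0.36) did not pass the test between GFP+ and GFP- cells, but did as higher with the array medians set equal (0.40 and 0.45, and 0.67 and 0.71). Khdrbs2 had a mean signal of 4.95 over the 16 arrays, below the lowest negative control median of any array, 5.99.

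Other genes of neurite growth were lower and higher side by side, with the higher ones near the share of all probe sets. That share was 11.3% higher and 11.9% lower in odor pools, and 9.34% and 11.8% in vehicle pools. Of 29 other neurite growth genes, 8 were lower and 4 higher in GFP+ cells of odor pools, and 10 were lower and 3 higher in vehicle pools, with medians of -0.05 and -0.09, beside 8 lower and 12 higher, and 7 lower and 15 higher, with the array medians set equal. Cxcr4, a chemokine receptor of neuron precursors that leukocytes also carry, was lower, at -4.47 and -4.52. Ablim1, an actin-binding protein, was at -3.45 and -2.95, Tmsb10, an actin monomer binder, at -2.19 and -2.32, and Tubb2b at -2.05 and -1.97 (limma adjusted p at most 3.57e-06). The GFP+ means of Ablim1, 4.76 in odor pools and 5.24 in vehicle pools, lay below the negative control median of every GFP+ array. The next 7 genes were picked after their values were seen. The neuronal tubulin Tubb3 (-0.05 and 0.01), Tuba1a (-0.10 and 0.04), Map1b (0.34 and 0.36) and Ncam1 (0.23 and 0.17) did not pass, but Map1b and Ncam1 did as higher with the array medians set equal (0.67 and 0.71, and 0.56 and 0.51), and so did Tubb3 (0.36, adjusted p = 0.023) and Tuba1a (0.39, adjusted p = 0.0037) in vehicle pools. Cnr1, the cannabinoid receptor of axons (0.92 and 1.22), Fez1 (0.76 and 0.66) and Pak3 (0.48 and 0.58) were higher in GFP+ cells, of which Fez1 and Pak3 did not pass with the odorant receptor medians set equal and Fez1 not in vehicle pools without the GFP+ array of pool 2 (adjusted p = 0.0581).

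Among genes of earlier stages, regulators of precursors and cycling genes were lower in GFP+ cells. Over all probe sets, 11.9% were lower in odor pools and 11.8% in vehicle pools. Of 15 precursor and early neuron regulators measured, 8 were lower in odor pools and 9 in vehicle pools, with medians of -1.25 and -1.02, beside 8 lower and 3 higher, and 8 lower and 5 higher, with the array medians set equal (medians -0.93 and -0.68). Nhlh1 was at -3.89 and -3.91, Kit, a receptor of neuron progenitors, at -3.24 and -3.54, Nhlh2 at -2.67 and -2.53 and Tex15 at -2.43 and -2.67 (limma adjusted p at most 3.31e-05). The GFP+ means of Kit, 5.82 in odor pools and 5.65 in vehicle pools, lay below the negative control median of every GFP+ array. The regulators that persist in mature neurons, Lhx2, Emx2 and Ebf1 to Ebf4, named after their values were seen, did not pass and differed by -0.16 to 0.18. When the array medians were set equal, Ebf1, Ebf2 and Ebf3 passed as higher in both kinds of pool (0.33 to 0.43), and Emx2 (0.39) and Ebf4 (0.53) in vehicle pools. All 9 cycling genes measured were lower in both kinds of pool (8 of 9 in vehicle pools with the array medians set equal), with medians of -2.46 and -2.52, and the proliferation antigen Mki67 was at -5.73 in each (adjusted p = 7.55e-10 and 7.21e-10). Its signal was above the negative control median on 1 of 4 odor GFP+ arrays and 2 of 4 vehicle GFP+ arrays.

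Of 18 genes of mature olfactory neurons, 4 were higher in odor pools, beside 11.3% of all probe sets, and 2 in vehicle pools, beside 9.34%, or 5 without the GFP+ array of vehicle pool 2. None was lower, and the medians were 0.17 and 0.18, while with the array medians set equal all 18 passed as higher in both kinds of pool. Omp differed by 0.03 ± 0.10 in odor pools and 0.05 ± 0.10 in vehicle pools (limma adjusted p = 0.841 and 0.742), and Pde1c, a phosphodiesterase of olfactory cilia, was higher by 0.60 and 0.69 (adjusted p = 0.000187 and 4.62e-05).

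Markers of other cells moved with the sort as well, in some cases by more than the growth genes. The counts below stand beside 11.9% of all probe sets lower in odor pools and 11.8% in vehicle pools, and 11.3% and 9.34% higher. All 12 neutrophil markers were lower in GFP+ cells, at -5.90 to -8.44 in odor pools and -5.83 to -8.45 in vehicle pools. Of the 12, 2 were at or below the negative control median on every odor GFP+ array, and 2 on every vehicle GFP+ array. Their log2 summed signal was 10.6 to 12.3 in odor GFP+, 18.6 to 19.6 in odor GFP-, 10.5 to 11.7 in vehicle GFP+ and 19.1 to 19.6 in vehicle GFP- cells. Of 9 macrophage markers, 6 were lower in each kind of pool (4 lower and 1 higher in vehicle pools with the array medians set equal), and the summed level was 11.2 to 11.6 in odor GFP+, 14.6 to 16.2 in odor GFP-, 11.4 to 12.1 in vehicle GFP+ and 15.5 to 16.3 in vehicle GFP- cells. Of 10 lymphocyte markers, 9 and 10 were lower. At or below the negative control median on every array of the group were 8 of 10 in odor GFP+ and 10 of 10 in vehicle GFP+ cells. The summed level of the lymphocyte markers was 8.61 to 8.82 in odor GFP+, 11.9 to 13.3 in odor GFP-, 8.60 to 8.76 in vehicle GFP+ and 12.8 to 13.2 in vehicle GFP- cells. Of 8 microvillar cell markers, 7 and 8 were lower. Both erythroid markers measured were lower in both kinds of pool. Of 8 sustentacular cell markers, 3 were lower in odor pools (1 under any of the 3 other scalings) and 1 in vehicle pools, or 5 without the GFP+ array of vehicle pool 2. Of the horizontal basal cell markers 0 and 1 of 4 were lower, of ensheathing glia 1 and 0 of 6, of fibroblasts 0 and 0 of 5 and of endothelial cells 1 and 1 of 5, with 1 endothelial marker higher in vehicle pools. When the array medians were set equal, 3 and 2 of the horizontal basal cell markers, 3 and 4 of the ensheathing glia markers, 2 and 1 of the fibroblast markers and 2 and 2 of the endothelial markers passed as higher in odor and vehicle pools. Many of these markers lay at or below the negative control median on every array of a group. This held for 4 of 4 horizontal basal cell markers and 1 of 5 fibroblast markers in each group. For ensheathing glia it was 3 of 6 in both odor groups and 4 of 6 in both vehicle groups. For endothelial cells it was 4 of 5 in both GFP+ groups and 2 of 5 in both GFP- groups. The part of these cells in the growth gene differences was not tested.

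**Figure D4:**
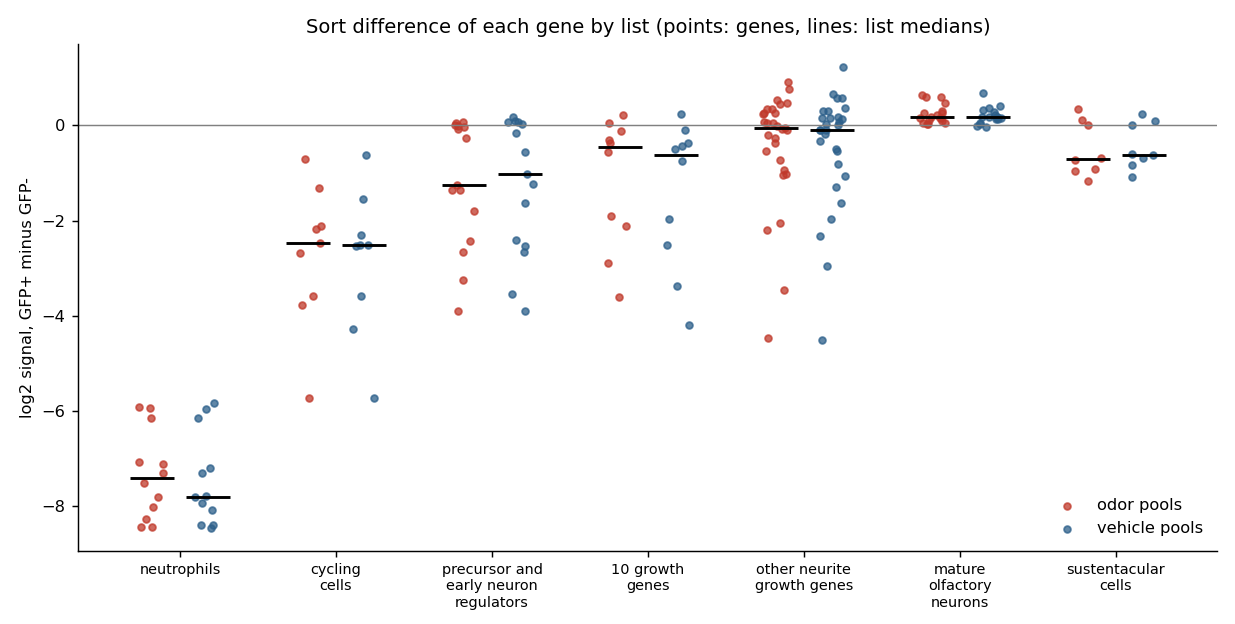
GFP+ minus GFP- log2 difference (y axis) of every measured gene of 7 gene lists (x axis), from the fit of all arrays; points are genes (red, odor pools; blue, vehicle pools) and black lines are list medians. The growth genes run from -4.20 to 0.23, above the neutrophil markers, all at -5.83 or lower. They overlap at their upper end with the mature neuron genes, at -0.03 to 0.69, none of which passed as lower.

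The odor was then compared with vehicle within each sorted population. No growth gene passed in GFP+ cells, where 0.0766% of all probe sets did (17 of 22206), none passed in GFP- cells, where 0.0495% did (0.0405% lower and 0.00901% higher), and the difference between odor and vehicle pools in the GFP+ minus GFP- contrast passed for none of the 10, beside 0.063% of all probe sets. No growth gene had an unadjusted p under 0.05 in any of these limma comparisons, beside 7.15% of all probe sets in GFP+ cells, 2.61% in GFP- cells and 4.65% for the difference of the contrasts. The arrays of odor and vehicle overlapped for all 10, beside 2.86% of all probe sets without overlap in GFP+ cells and 2.61% in GFP- cells. In GFP+ cells the largest difference was that of Dbn1, at 0.40 ± 0.26 (95% interval -0.15 to 0.95, limma adjusted p = 0.786), and leaving out the GFP+ array of vehicle pool 2 brought it to 0.03. Gap43 differed by -0.10 in GFP+ cells, with an interval of -0.87 to 0.66, and Gng8 by 0.19, with an interval of -0.77 to 1.16.

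In GFP- cells, Gap43 had the largest difference, -0.49 ± 0.36 (95% interval -1.25 to 0.28, limma adjusted p = 1). The odor array read below the vehicle array of the same number in 4 of 4 comparisons, at -0.85, -0.40, -0.23 and -0.46. Odor and vehicle pools came from different mice, so setting them side by side by number is arbitrary. The Gap43 arrays overlapped, at 11.01 to 12.30 in odor GFP- and 11.47 to 12.90 in vehicle GFP- cells. Gng8 (-0.39 ± 0.46), Dpysl5 (-0.24 ± 0.21) and Stmn2 (-0.16 ± 0.12) also read below in 4 of 4. Dpysl3 did so in 2 of 4 (-0.14 ± 0.38), Stmn1 in 3 of 4 (-0.08 ± 0.20) and Dcx in 3 of 4 (-0.15 ± 0.17). Stmn4 (0.05 ± 0.17), Crmp1 (0.10 ± 0.25) and Dbn1 (0.03 ± 0.26) had intervals on both sides of 0 too. The median of the 10 genes was 0.09 in GFP+ cells and -0.15 in GFP- cells, beside 0.01 and -0.0019 over all probe sets. A p that misses the threshold does not show that the odor left these genes unmoved: for Gap43 in GFP- cells the interval reaches down to -1.25.

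**Figure D5:**
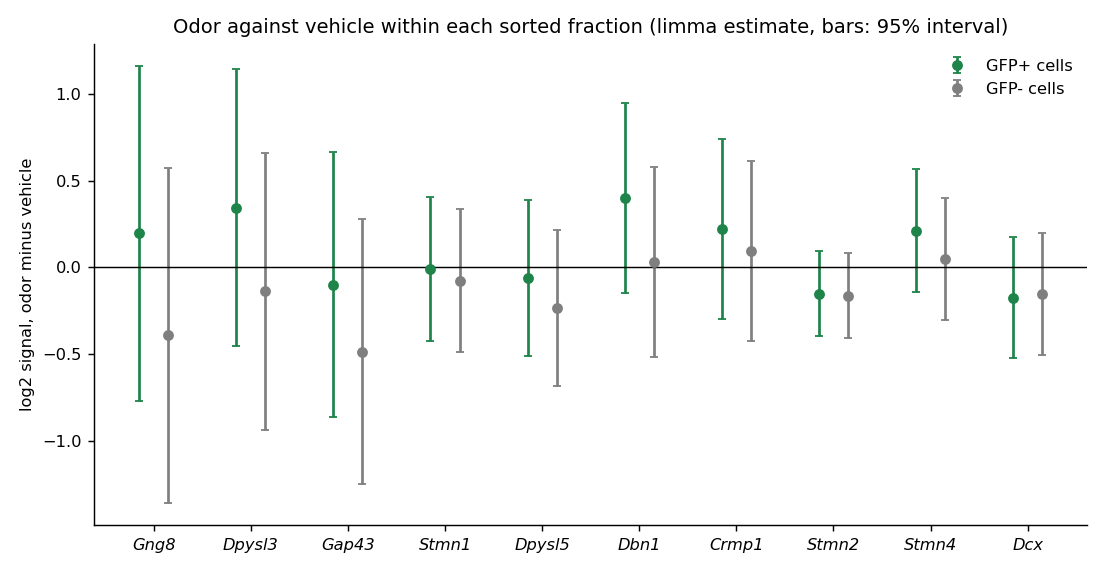
Odor minus vehicle log2 difference (y axis) of each growth gene (x axis) in GFP+ cells (green) and GFP- cells (grey), with 95% confidence intervals from limma (n = 4 arrays a group). All 20 intervals include 0, and those of Gng8, Gap43 and Dpysl3 are the widest.

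GFP+ minus GFP- was less negative or more positive in odor pools than in vehicle pools for 9 of the 10 genes, without passing the test. Over all probe sets this change was negative for 48.7%. The median change was 0.17 for the 10 genes and 0.0080 over all probe sets. Without the GFP+ array of vehicle pool 2, the change of Crmp1 went from 0.13 to -0.23 and that of Dbn1 from 0.37 to 0.0038. The count therefore rests in part on that array. The change was 0.59 ± 0.65 for Gng8, 0.48 ± 0.53 for Dpysl3, 0.39 ± 0.51 for Gap43, 0.06 ± 0.28 for Stmn1 and -0.02 ± 0.23 for Dcx (odor less vehicle, limma adjusted p = 0.999 each). These SEs come from the fit without a block, which does not use the pairing within pools. The SD of GFP+ minus GFP- was 0.13 over odor pools and 0.39 over vehicle pools for Gng8, and 0.33 and 0.18 for Gap43. With the pool as a block, and under every other alternative, the limma adjusted p stayed at 0.776 or higher for Gng8 and 0.907 or higher for Gap43. For Gap43, GFP+ minus GFP- was -2.21, -2.50, -2.07 and -1.70 in odor pools 1 to 4, against -2.50, -2.28, -2.73 and -2.51 in vehicle pools. For Gng8 it was -3.57, -3.70, -3.44 and -3.73 in odor pools, against -4.33, -4.15, -3.70 and -4.62 in vehicle pools. The pools overlapped for both genes. These comparisons share arrays with the comparisons within each population and are not independent of them.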

How the data were processed

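Sorted cells of 8 mouse pools were hybridized to Clariom S arrays, 16 in all, and the authors deposited 1 table of log2 signals, made with Affymetrix Expression Console per the submitters' processing notes; the sources used here do not give its version, summarization or normalization. Of 28846 features, 22206 outside the control classes were tested, and 19572 of these had 1 gene symbol in the platform annotation. Groups came from the sample labels. Group means were fitted with limma 3.58.1 (R 4.3.3) over all 16 arrays without a block, two-sided, with Benjamini-Hochberg adjustment over all tested probe sets and a threshold of 0.05; the script was tested on simulated data. Sign-flip tests used scipy 1.17.1. Alternatives were 3 other scalings, a filter on dim probe sets, a variance trend, only the groups compared, blocks for replicate number or pool, and each array left out; for relatives and gene lists the other scalings and the fit without the GFP+ array of vehicle pool 2 were added after seeing the data. The GFP+ and GFP- arrays of a pool come from the same mice. Over all tested probe sets, their deviations from the group means correlated at 0.0119 to 0.224. For Gng8 the GFP+ and GFP- deviations were 0.78 and 0.61 in odor pool 3 and -0.93 and -0.80 in odor pool 4, but -0.05 and 0.04 in odor pool 2. The SEs of the sort differences come from the fit without a block, so they include spread that both arrays of a pool share. The members and gene lists were chosen with earlier results of these data known. All 10 members and their relatives are named; other lists give up to 4 genes with the largest non-overlapping differences past the threshold in each sort comparison, and likeness lists give 8. Scanner files and array scan dates were not used here, so the signal of single probes was not checked. The number of arrays limits the precision, and p-values measure the spread between pools.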

Additional observations from a re-analysis of the deposited data

Results flagged for a closer look

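In 132 groups of 4 arrays checked (the growth genes, their relatives, Omp and S100a5), 10 had a highest or lowest array whose gap to the nearest other array passed Dixon's 95% critical share of the range, where chance flags about 1 group in 20. Of the growth genes, Stmn4 was high on odor GFP+ array 3 (14.86, others 14.42 to 14.48). The GFP+ array of vehicle pool 2 was low for Crmp1 (11.89, others 13.27 to 13.36), Dbn1 (9.05, others 10.49 to 10.53), Marcksl1 (6.38, others 7.19 to 7.33), Dpysl2 (14.75, others 15.67 to 15.85) and Dbnl (8.66, others 9.57 to 9.68). That array also had the highest negative control median, 7.28, and the part of this in the low values was not tested. Marcks was high on odor GFP- array 3 (14.32, others 13.38 to 13.51), and Dpysl2 on odor GFP+ array 1 (15.97, others 15.73 to 15.75). Gng7 was low on odor GFP- array 4 (3.82, others 4.08 to 4.14) and on vehicle GFP- array 1 (3.99, others 4.32 to 4.38), well below the negative control median.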

How the results depend on the processing

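The calls of Gng8, Dpysl3, Gap43 and Stmn1 as lower in GFP+ cells held under all 8 alternatives and with each of the 16 arrays left out, with differences of -3.88 to -3.28, -3.19 to -2.57, -2.36 to -1.79 and -2.03 to -1.58 in odor pools. Growth genes called, in either direction, numbered 4 to 6 in odor pools and 4 to 8 in vehicle pools over all alternatives, and 4 to 5 and 4 to 6 with an array left out; in the comparisons of odor with vehicle it was 0 throughout. Of 1170 values of growth genes under an alternative, 9 gained a call, 22 lost it and none reversed. Dpysl5 and Stmn2 account for most of these. Dpysl5 passed in odor pools with the replicate number as a block (adjusted p = 0.00599), with the pool as a block (0.0173), and in 2 of 16 fits with an array left out; in vehicle pools it did not pass in 2 of 16. Stmn2 did not pass in odor pools after quantile normalization (0.0671) or with odorant receptor medians set equal (0.101) or the pool as a block (0.0507), nor in either kind of pool in a fit of only the groups compared (0.0608 and 0.0724). With the pool block 5 and 6 growth genes passed, with the number block 6 and 6, and the block changed no other call of a growth gene. Samples of the same number deviated together in GFP- cells (0.186 to 0.29) but not throughout in GFP+ cells (0.0311 to 0.256). The cause of these changes was not tested. Signal near the negative controls limits the folds of Gng8, Dpysl3 and Gap43, whose GFP+ signal was above their 95th percentile on 0, 0 and 1 of 8 arrays.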
